A study of Mus musculus with 6 samples.

Results

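The genes Tcf7l2, Lef1, Gbx2, Slc17a6, Prkcd, Rgs16, Ramp3 and Ntng1, used as markers of the thalamus, were followed in cortical RNA of control and microglia-depleted mice. The genes were taken by symbol as thalamus-enriched genes, not by their values, though the choice was made with earlier results of these data known. In the expression table, 8 of 8 were found among its 23366 genes. RNA came from 3 control mice, called A1 to A3, and from 3 littermates taken at d10 after depletion, called A4 to A6, all on a C57BL/6 background and with 1 library per mouse. The depleted mice were CX3CR1-CreERT2+/-iDTR+/- and the control mice CX3CR1-CreERT2+/- without iDTR, so the CreERT2 allele was shared by both groups. Both received tamoxifen. Diphtheria toxin then killed cells that expressed its receptor, and the methods do not state whether the control mice received it. The Cre is driven by the promoter of CX3CR1, which is active in microglia and also in other myeloid cells, and at d10 new microglia had repopulated the brain. The mice were adults, and their age in weeks is not given in the sources used here. The tissue is labelled brain cortex, and the study describes it as frontal cortex.

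The thalamus relays sensory signals to the cortex through glutamatergic projection neurons, whose axons end mainly in layer IV. These neurons load glutamate with the vesicular transporter VGLUT2, the product of Slc17a6, while most cortical pyramidal neurons use VGLUT1, the product of Slc17a7. Tcf7l2, Lef1 and Gbx2 encode transcription factors of thalamic development, of which Tcf7l2 and Lef1 act with beta-catenin downstream of Wnt signals. Several of these genes also have RNA outside the thalamus. Tcf7l2 is known in oligodendrocytes that begin to myelinate, and Lef1 in brain endothelium. In RNA of a whole tissue piece, fewer cells of a type and less RNA per cell cannot be told apart, and neither can thalamic tissue in the dissection and expression by cortical cells.

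The promoters of Ramp3 and Prkcd are shown because these were the 2 genes in which every depleted mouse lay below every control mouse. Each window runs from 250 bases before to 50 bases after the gene's start, as RefSeq gives it on GRCm38.p6. The Ramp3 window is chr11:6658283-6658582 on the plus strand, and the Prkcd window is chr14:30626159-30626458 on the minus strand. Capitals mark GGGCGG or its reverse complement CCGCCC, the GC box that Sp1-type factors bind.
Ramp3: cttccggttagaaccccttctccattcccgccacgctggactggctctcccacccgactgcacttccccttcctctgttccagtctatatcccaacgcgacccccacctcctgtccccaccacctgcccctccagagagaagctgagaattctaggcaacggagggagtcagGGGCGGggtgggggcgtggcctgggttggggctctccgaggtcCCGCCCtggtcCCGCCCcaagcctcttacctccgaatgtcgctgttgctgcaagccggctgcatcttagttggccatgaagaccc
Prkcd: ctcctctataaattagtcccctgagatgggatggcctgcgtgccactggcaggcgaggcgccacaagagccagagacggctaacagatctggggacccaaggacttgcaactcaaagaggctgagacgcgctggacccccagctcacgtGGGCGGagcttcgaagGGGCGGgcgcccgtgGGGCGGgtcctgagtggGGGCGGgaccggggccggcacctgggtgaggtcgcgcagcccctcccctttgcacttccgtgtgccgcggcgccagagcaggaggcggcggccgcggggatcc

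The Ramp3 window held 3 of these GC boxes and the Prkcd window held 4. At least 1 window of each of the 8 genes held a GC box, in 10 of their 14 annotated windows, against 35.7% of all 32851 windows of the same length. CTTTGA or TCAAAG, the core letters that TCF and LEF factors bind, was found in the Prkcd window and in 1 of the Lef1 windows, that is in 2 of 14 windows, against 16.0% of all windows. In the windows shown, no match to one set of letters overlapped a match to the other. A match is a description of the letters and not a site in use.

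Values are FPKM, fragments scaled by transcript length and by library size, so levels of different genes can be set side by side. All 8 genes had RNA in every mouse. In control mice 3 tiers were seen. Slc17a6, Prkcd and Ramp3 stood highest, at 20.98 ± 4.82, 19.74 ± 3.73 and 18.18 ± 1.43 FPKM (SD, n = 3), with ranges that overlapped one another. Rgs16, Tcf7l2 and Ntng1 followed at 9.87 ± 1.49, 9.62 ± 1.27 and 9.52 ± 1.06 FPKM (SD, n = 3), again with overlapping ranges. Lef1 at 2.52 ± 0.131 and Gbx2 at 1.46 ± 0.155 FPKM (SD, n = 3) were lowest, and their control ranges did not overlap. Averaged over the 6 mice, the level of Slc17a6 was above that of 69.8% of the 14385 genes tested, and the level of Gbx2 above that of 13.5%. Cortical markers were abundant, as the tissue label states. Slc17a7, the cortical transporter gene, was at 325.0 to 383.3 FPKM in the 6 mice, against 13.5 to 26.5 FPKM for Slc17a6. The 15 genes of a cortical excitatory list summed to between 1126 and 1308 FPKM, and the 8 thalamic genes to between 68.7 and 98.0 FPKM.

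Depth differed between the libraries. The spacing of low FPKM values gave an estimate of 14.6 to 20.6 M fragments per control library, and of 13.8 M for A4 and 11.2 M for A6. For A5 spacings for 10.7 M and 7.20 M scored nearly alike. With Gbx2's annotated length, its values correspond to between 27.0 and 58.0 fragments per library (A5 taken at 10.7 M). Lef1 in A4 corresponds to 33.0 fragments with its shortest coding transcript. Depleted mouse A4 stood apart from the other mice in other genes too. The median of 10 interferon response genes, relative to the control mean, was 3.79 on the log2 scale in A4, and 1.10 and 1.09 in A5 and A6. Summed FPKM of 4 Y-linked genes was 5.56 in A4 and at most 0.160 in each other mouse, while Xist was 4.74 FPKM in control mouse A3 and at least 30.9 FPKM in the other 5 mice. The part of these differences between mice in the values below was not tested.

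To ask whether these genes differed after microglia depletion, the groups were compared with limma on log2(FPKM + 1). The fit took the 14385 genes whose mean over the mice reached 0.5 FPKM, a filter that all 8 genes passed. With Benjamini-Hochberg adjustment and the threshold of 0.1 that the study used, 0 of the 8 genes passed, against 0.0278% of all genes tested, which is 4 genes. The study called many more genes at that threshold, with DESeq on raw counts, so its calls and these are not alike. Here 0 of 10 interferon response genes passed either, though all 10 lay apart and higher in depleted mice. At an unadjusted p-value under 0.05, 2 of the 8 passed, Ramp3 and Prkcd, both lower in depleted mice, against 5.74% of all genes called lower at that level. The same 2 genes had every depleted mouse below every control mouse, against 9.38% of all genes. On the log2 scale, 7 genes had a lower mean in depleted mice and Rgs16 a higher one, where 52.0% of all genes had a lower mean. Gbx2 counts among the 7 with group means of 1.46 and 1.47 FPKM that hardly differ. The median log2 fold change of the 8 genes was -0.24, beside -0.0085 over all genes tested. Without A4 the median was -0.11, and 6 of 8 genes had a lower mean. Without A4, Ramp3 alone had an unadjusted p-value under 0.05, against 7.20% of genes lower at that level, and Ramp3 and Prkcd still lay apart, against 15.7% of genes. No gene of the 8 passed the adjusted threshold under any of the 14 alternatives that were run.

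**Figure D1:**
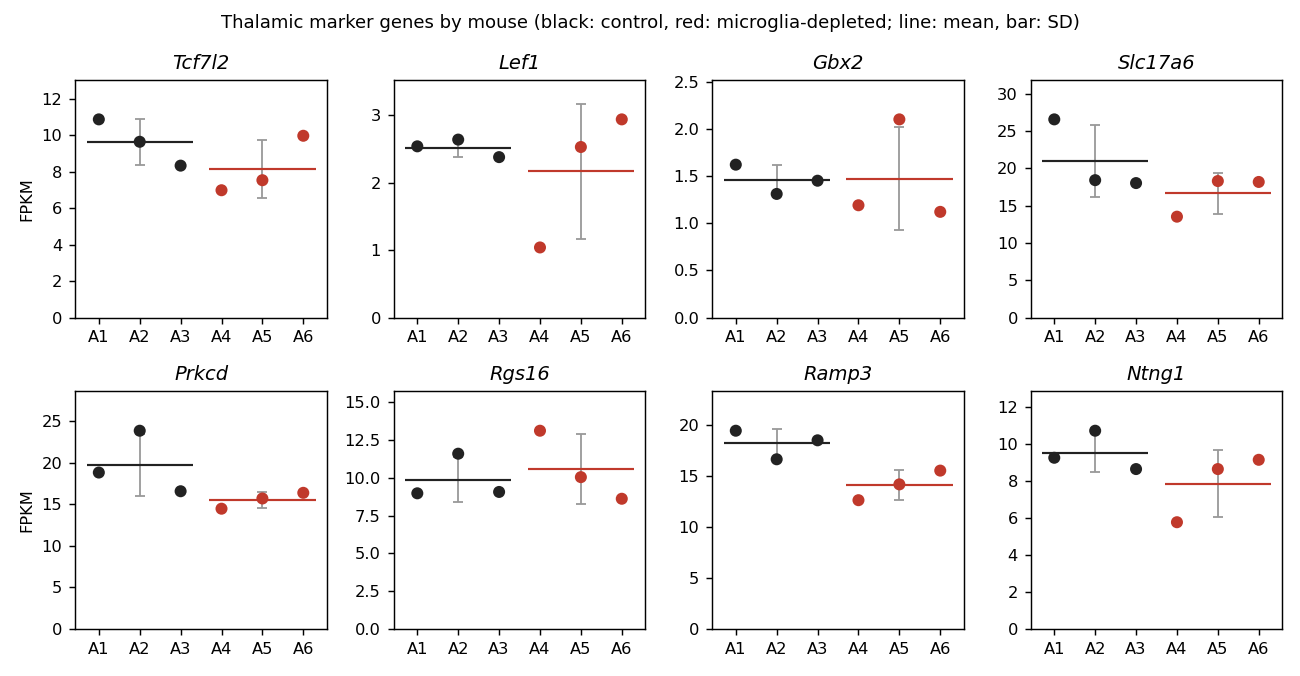
FPKM of the 8 thalamic marker genes in each mouse (control A1 to A3 in black, microglia-depleted A4 to A6 in red), with the group mean as a line and the SD as a bar; each y axis starts at 0. Ramp3 and Prkcd have all red points below all black points, and A4 is the lowest mouse in 6 of the 8 panels.

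Slc17a6 lies on chromosome 7 of GRCm38 from 51622006 to 51671119. The control values were 26.54, 18.40 and 18.01 FPKM, and the depleted values 13.51, 18.28 and 18.16 FPKM, both in the order of the mouse names as in all values that follow. A1 was high and A4 low, and the other 4 mice lay within 18.01 to 18.40 FPKM, so the groups overlapped. The mean was 20.7% lower in depleted mice (log2 fold change -0.31, standard error 0.17, adjusted p = 0.557 in limma), with a 95% interval from -0.69 to 0.080. Without A4 the log2 fold change was -0.17. The other vesicular glutamate transporters had log2 fold changes of 0.031 for Slc17a7 and 0.014 for Slc17a8, which was below 1 FPKM in every mouse, and both overlapped between the groups.

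Ramp3 (chromosome 11, 6658521 to 6677475) encodes an accessory protein that sets the ligand preference of calcitonin-family receptors. It was at 19.43, 16.63 and 18.49 FPKM in control and at 12.62, 14.17 and 15.52 FPKM in depleted mice. The lowest control mouse, A2, was above the highest depleted mouse, A6. The mean was 22.4% lower in depleted mice, at 14.10 ± 1.45 FPKM (SD, n = 3), and the log2 fold change was -0.35 (standard error 0.10, adjusted p = 0.378 in limma). An exact two-sided permutation test gave p = 0.1, and no smaller value can be reached with 3 mice per group. The unadjusted p-value was 0.0097, and it was under 0.05 in the 14 alternatives as well, while the adjusted p-value in limma ran from 0.272 to 0.892. Ramp3 had the lowest unadjusted p-value of the 8 genes, and its fold change was the most negative of the 8. Its paralog Ramp1, which accompanies the same receptors, was at 32.10, 31.24 and 33.38 FPKM in control and 26.05, 30.59 and 28.57 FPKM in depleted mice, without overlap (log2 fold change -0.18, adjusted p = 0.498 in limma). The other paralog Ramp2 (-0.035), the calcitonin receptor gene Calcr (0.032) and Calcrl (-0.30), which encodes the receptor that RAMPs accompany for CGRP and adrenomedullin, overlapped between the groups.

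Prkcd (chromosome 14, 30595354 to 30626210) encodes protein kinase C delta, a calcium-independent kinase activated by diacylglycerol. It was at 18.81, 23.84 and 16.56 FPKM in control and at 14.46, 15.69 and 16.37 FPKM in depleted mice. The groups lay apart by a narrow margin, 16.56 in A3 against 16.37 in A6. The mean was 21.4% lower in depleted mice (log2 fold change -0.32, standard error 0.13, adjusted p = 0.457 in limma, exact two-sided permutation p = 0.1). Its unadjusted p-value was 0.041 and ran from 0.013 to 0.158 over the alternatives, with a log2 fold change of -0.18 without A2, the control mouse in which it was highest. Among the 8 other protein kinase C genes, Prkch and Prkcz had groups that lay apart, lower after depletion, with log2 fold changes of -0.27 and -0.17 (adjusted p = 0.480 and 0.550 in limma), and Prkcz was at -0.074 without A4. Prkca, Prkcb and Prkce, which are abundant in neurons, overlapped, with log2 fold changes of 0.0052, -0.042 and 0.042.

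Rgs16 (chromosome 1, 153740349 to 153745468) encodes a regulator of G protein signaling that speeds the switching off of Gi and Gq proteins. It was at 8.97, 11.59 and 9.06 FPKM in control and at 13.11, 10.04 and 8.61 FPKM in depleted mice. A4 was the highest mouse and A6 the lowest, so the depleted group spanned the control group. The log2 fold change was 0.082 (standard error 0.16, adjusted p = 0.883 in limma) and became -0.070 without A4. Its close relatives of the R4 subfamily did not share the A4 value of Rgs16. Rgs4, the most abundant at 149.7, 174.4 and 152.8 FPKM in control mice, was at 88.7, 161.4 and 154.8 FPKM in depleted mice, and Rgs5 was also lowest in A4, at 3.27 FPKM. Rgs3 lay apart and lower after depletion (log2 fold change -0.24, adjusted p = 0.451 in limma). Rgs2 (0.053) and Rgs8 (-0.033) overlapped, and Rgs1, Rgs13 and Rgs18 were under the filter.

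Tcf7l2 (chromosome 19, 55741820 to 55933654) was at 10.88, 9.65 and 8.34 FPKM in control and at 6.99, 7.54 and 9.98 FPKM in depleted mice. A4 and A5 were the lowest mice, and A6 was above A2 and A3. The mean was 15.1% lower (log2 fold change -0.22, standard error 0.15, adjusted p = 0.623 in limma), and the log2 fold change ran from -0.36 without A6 to -0.13 without A4. Lef1 (chromosome 3, 131110471 to 131224356) was at 2.54, 2.64 and 2.38 FPKM in control and at 1.04, 2.53 and 2.94 FPKM in depleted mice. A4 alone was low, against 2.38 FPKM in the next lowest mouse, and A6 was the highest of the 6. The log2 fold change of Lef1 was -0.21 (standard error 0.24, adjusted p = 0.784 in limma) and 0.084 without A4. Gbx2 (chromosome 1, 89927956 to 89931179) was at 1.62, 1.31 and 1.45 FPKM in control and at 1.19, 2.10 and 1.12 FPKM in depleted mice. Its group means were 1.46 and 1.47 FPKM, the depleted mice spanned the control mice, and the log2 fold change was -0.014 (standard error 0.18, adjusted p = 0.984 in limma), with an interval from -0.43 to 0.40. Its sign changed with the mouse left out.

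The partners of Tcf7l2 and Lef1 were looked at in 28 genes of the Wnt/beta-catenin pathway. Of the 28 genes, 18 had a lower and 10 a higher mean in depleted mice, 0 had an unadjusted p-value under 0.05 and 0 an adjusted p-value under 0.1, and the median log2 fold change was -0.048. The other TCF genes, Tcf7 (0.014) and Tcf7l1 (-0.013), overlapped between the groups. Axin2, a feedback inhibitor commonly read as a target of the pathway, was at 5.61, 5.73 and 5.53 FPKM in control and 4.99, 5.31 and 5.86 FPKM in depleted mice, also with overlap. Ctnnb1, which encodes beta-catenin, had a log2 fold change of 0.031. Fzd9 and Bcl9 lay apart, lower after depletion, with log2 fold changes of -0.19 and -0.15. These were 2 of the 28 genes, against 9.38% of all genes that lay apart and lower. Wnt10b was at 9.25 FPKM in A4 and at most 0.75 FPKM in each other mouse.

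Ntng1 (chromosome 3, 109780040 to 110144011) encodes netrin-G1, a membrane-anchored adhesion molecule of thalamocortical axons. It was at 9.24, 10.70 and 8.63 FPKM in control and at 5.76, 8.63 and 9.13 FPKM in depleted mice. A4 was low, and A5 equaled the lowest control mouse to the 2 decimals of the table. The mean was 17.7% lower (log2 fold change -0.27, standard error 0.16, adjusted p = 0.593 in limma), and the log2 fold change was -0.087 without A4. Its paralog Ntng2 was at 11.89, 12.81 and 11.44 FPKM in control and at 6.83, 10.72 and 8.69 FPKM in depleted mice, with groups that lay apart (log2 fold change -0.44, or -0.29 without A4, adjusted p = 0.396 in limma). The netrin-G1 receptor gene Lrrc4c (-0.059) and its relative Lrrc4 (0.059) overlapped.

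**Figure D2:**
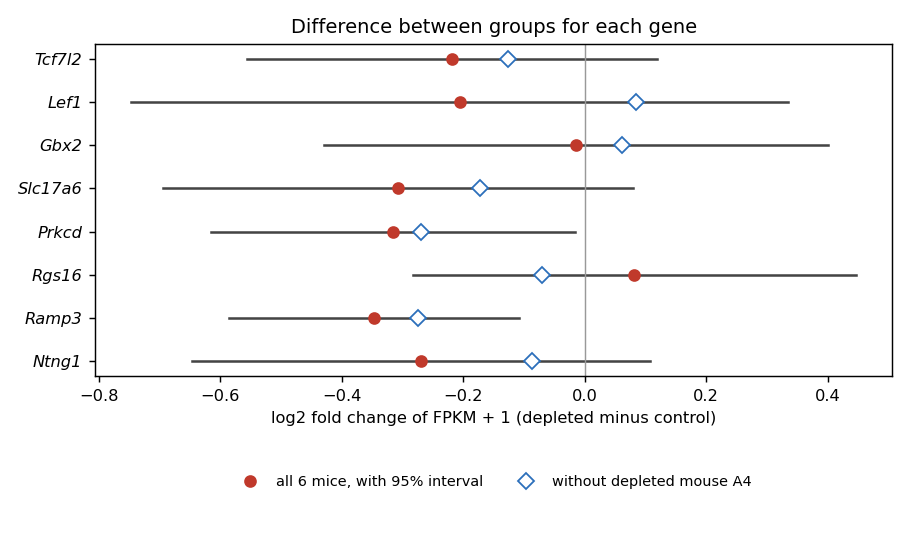
Log2 fold change of FPKM + 1, depleted minus control, for each gene (red points, with the 95% interval from limma as a line) and the same without depleted mouse A4 (open diamonds). The intervals of Ramp3 and Prkcd lie below 0, and Lef1, Gbx2 and Rgs16 change sign without A4.

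The 8 genes were compared mouse by mouse. A4 was the lowest of the 6 mice in 6 genes, Tcf7l2, Lef1, Slc17a6, Prkcd, Ramp3 and Ntng1, and the highest in Rgs16. A1 was the highest in 3 genes and A2 in 2. Relative to the control mean, the median of the 8 genes on the log2 scale was 0.051, 0.030 and -0.11 in the control mice, and -0.45, -0.15 and -0.17 in the depleted mice. The values of A5 and A6 were thus near that of control mouse A3. Over the 6 mice, 20 of the 28 pairs of genes had a positive Pearson correlation of log2(FPKM + 1), with a median of 0.48, and without A4 the median was 0.13. The highest of the 28 was 0.93, for Lef1 and Ntng1, which was 0.31 without A4, while Prkcd and Ntng1 had 0.79 and 0.96 without A4. Rgs16 had a negative correlation with 6 of the other 7 genes, and with 4 of 7 without A4, where its correlation with Ntng1 went from -0.53 to 0.71. The points of each pair share their library, so these values describe the 6 mice only.

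**Figure D3:**
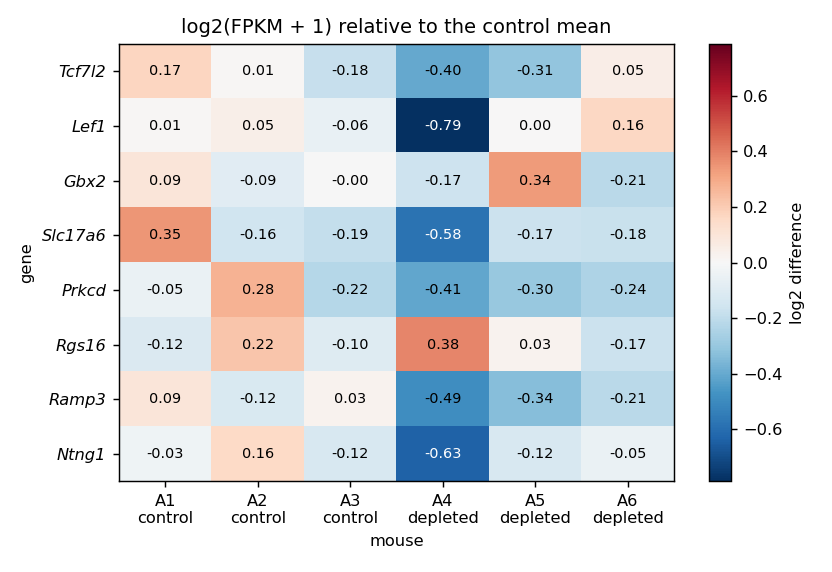
Log2(FPKM + 1) of each gene in each mouse relative to the mean of the 3 control mice (blue lower, red higher). The A4 column runs from -0.79 for Lef1 to 0.38 for Rgs16. The Ramp3, Prkcd, Slc17a6 and Ntng1 rows are below 0 in each of the 3 depleted mice.

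Other thalamic genes did not show the same median. Of 18 further genes with known thalamic expression, 10 had a lower and 8 a higher mean in depleted mice, 0 had an adjusted p-value under 0.1, and their median log2 fold change was -0.030, or 0.011 without A4. Slitrk6 and Plcb4 lay apart, lower in depleted mice, at -0.38 and -0.11 (adjusted p = 0.475 and 0.661 in limma). Slitrk6 was at 1.86, 1.68 and 1.54 FPKM in control and 0.73, 1.18 and 1.36 FPKM in depleted mice, and its log2 fold change was -0.25 without A4. The T-type calcium channel gene Cacna1g (0.057), Tnnt1 (-0.020) and the orphan receptor gene Rora (0.048) overlapped. The 5 genes of a list for the habenula, which borders the thalamus, had a median of -0.075, or 0.087 without A4, and the lowest mouse of this list was control mouse A2, at -0.39. A test of the difference between these lists was not run.

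Lists of neighboring regions and of other cell types moved with some of the same mice. In the oligodendrocyte list, which bears on Tcf7l2, 12 of 13 genes had a lower mean in depleted mice, against 52.0% of all genes. Groups lay apart in 6 of the 12, against 9.38% of all genes that lay apart and lower. The list had a median log2 fold change of -0.25, or -0.17 without A4. Its medians in the depleted mice were -0.37, -0.27 and -0.020, and Tcf7l2 itself was at -0.40, -0.31 and 0.055 relative to control. The summed FPKM of this list was 3176 to 3455 in control and 2790 to 2904 in depleted mice. Cnp, a myelin enzyme gene, was at 164.2, 155.2 and 156.4 FPKM in control and 122.5, 130.2 and 130.8 FPKM in depleted mice (log2 fold change -0.31, adjusted p = 0.307 in limma). For CNP protein, the study saw no increased staining in the somatosensory cortex at d10, and it read oligodendrocytes there as not affected. That result is for protein and for another cortical region. The part of oligodendrocyte RNA in the Tcf7l2 values was not tested. In the endothelial list, which bears on Lef1, 4 of 14 genes had a lower mean, with a median of 0.091. Its medians relative to control were 0.076, 0.15 and 0.059 in the depleted mice, where Lef1 itself was at -0.79, 0.0048 and 0.16. The part of endothelial RNA in the Lef1 values was not tested.

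The choroid plexus list, whose tissue lies beside the thalamus in the ventricles, had 8 of 8 tested genes with a lower mean and a median of -0.43, with the lowest per-mouse medians in A6 (-0.61) and A5 (-0.53) and not in A4 (-0.36). Most of its RNA was Ttr, the transthyretin gene, at 172.7, 313.7 and 160.1 FPKM in control and 64.3, 40.9 and 59.9 FPKM in depleted mice (log2 fold change -1.91, adjusted p = 0.151 in limma). The hippocampus list had 5 of 6 tested genes with a lower mean and a median of -0.26, or -0.14 without A4. The 12 striatal genes had a median of -0.095, or 0.064 without A4, with A4 at -0.38 and the other 5 mice between -0.13 and 0.12, and 0 of 12 lay apart. Hypothalamic genes had a median of -0.027, with control mouse A3 highest at 0.40, but single genes differed in both directions. Hcrt was at 19.68, 18.59 and 28.36 FPKM in control and 9.13, 8.12 and 13.34 FPKM in depleted mice (adjusted p = 0.293 in limma). Agrp was at 0.20, 0.00 and 0.24 FPKM in control and 3.24, 1.26 and 1.99 FPKM in depleted mice (adjusted p = 0.270 in limma). Pomc was at 268.98 FPKM in A3 and at most 9.42 FPKM in each other mouse. How much of each region the dissections held was not tested.

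In the cortex itself, the targets of thalamic axons were seen through 5 layer IV genes. Rspo1 was at 4.72, 5.04 and 4.46 FPKM in control and 1.77, 3.50 and 3.48 FPKM in depleted mice (log2 fold change -0.59, or -0.35 without A4, adjusted p = 0.396 in limma). Scnn1a was at 1.99, 2.24 and 2.38 FPKM in control and 1.03, 1.76 and 1.01 FPKM in depleted mice (log2 fold change -0.51, adjusted p = 0.393 in limma). Both lay apart and lower in depleted mice. Endou lay apart and higher (0.64), and Rorb (-0.12) and Kcnh5 (-0.064) overlapped. The 15 cortical excitatory genes had a median of -0.062, or 0.0015 without A4. Lamp5 lay apart, lower in depleted mice, at -0.41, or -0.23 without A4. Of the inhibitory neuron list, 3 of 7 genes had a lower mean and the median was 0.014, and of the astrocyte list 7 of 8, with a median of -0.14, where Gfap was the exception at 1.00, or 0.54 without A4. The microglia list had 9 of 13 genes with a higher mean, a median of 0.11, or -0.026 without A4.

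**Figure D4:**
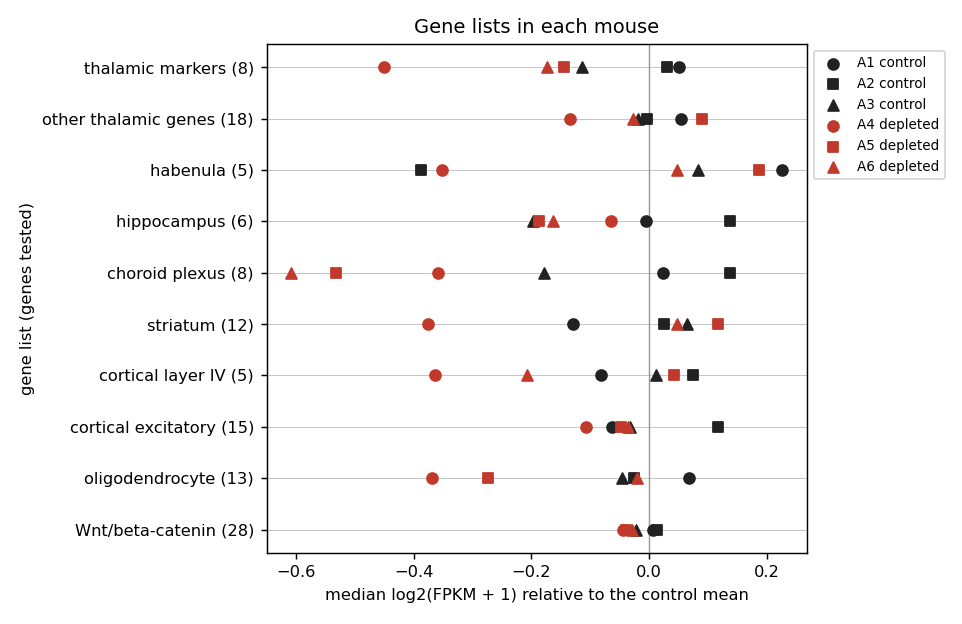
Median log2(FPKM + 1) of each gene list in each mouse, relative to the control mean (black control, red depleted; symbols name the mouse; number of genes tested in brackets). A4 is the lowest mouse for the thalamic markers, at -0.45, for the other thalamic genes, at -0.13, and for the striatal, layer IV, cortical excitatory, oligodendrocyte and Wnt lists.

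The genes most like the 8 were named by the Pearson correlation, over the 6 mice, of log2(FPKM + 1) with the mean of the 8 centred genes, among 13214 other genes that averaged 1 FPKM or more. They were Gm9962, Sppl2a, an intramembrane protease gene, Lhpp, a phosphatase gene, Ptpru, a receptor tyrosine phosphatase gene, and Chn2, which encodes a Rac-inactivating chimaerin, with correlations from 0.991 to 0.997. Chn2 was at 18.37, 17.79 and 15.85 FPKM in control and 11.68, 15.32 and 14.85 FPKM in depleted mice, and Lhpp at 11.23, 9.91 and 7.85 against 4.98, 7.99 and 7.99 FPKM. Like the 8 genes on average, each of the 5 was lowest in A4, and 0 of the 5 passed the adjusted threshold. The 5 genes most like Ramp3 were Scfd2, Actg1, Sgsm2, Pllp and Tubb2b, of which Pllp, the gene of the myelin protein plasmolipin, was at 28.09, 22.83 and 24.79 FPKM in control and 16.23, 19.06 and 21.27 FPKM in depleted mice. For Prkcd they were Vmp1, Zbtb7a, Kcnk1, Trmt61a and Mmd. These correlations, the highest of 13214, rest on 6 mice and are a description.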

How the data were processed

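RNA of 6 cortical samples was measured by RNA-seq of poly(A)-selected libraries with 75 bp paired-end reads. The authors aligned reads with TopHat, quantified known transcripts with RSEM and scaled libraries with TMM. They deposited FPKM values per gene symbol, rounded to 2 decimals. The submitters' processing notes name the build mm9, TopHat, RSEM and DESeq, and versions are not given in the sources used here. The study tested raw counts with DESeq, and counts were not used here.

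Groups came from the sample labels. Genes averaging 0.5 FPKM or more were compared on log2(FPKM + 1) with limma 3.58.1 in R 4.3.3 (eBayes with trend, no covariate), with Benjamini-Hochberg adjustment over all 14385 genes and a threshold of 0.1. For genes of low level, this scale gives too small a fold change. In simulated data, 85.5% of 200 genes with a log2 change of 1 were recovered. These genes were drawn from those of higher level and given independent noise. The change was larger than in any of the 8 genes. In the real data, 0 of 10 interferon response genes passed the threshold, with log2 fold changes from 1.37 to 2.69. The simulation therefore does not give the power of the test for the 8 genes. The 8 genes were also compared singly by permuting the group labels (exact, two-sided, scipy 1.17.1). Mice are separate animals with no stated litter or batch.

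The 8 genes, and the lists for regions, cell types, pathway and gene families, were chosen with earlier results of these data known. Named genes were the 8, at most 4 of each list (the extreme fold changes and groups that lie apart), all of the families, and the genes most like the 8 by correlation; other list genes were named after their values were seen. Of the listed genes only Nwd2 was not found, and Drd1 was read as Drd1a. Depth was estimated from the spacing of low values in 1813 genes with 1 annotated transcript of 400 to 1500 bases. It covers counting error only. Positions come from GENCODE M21 on GRCm38, matched by symbol, and promoters from RefSeq (GRCm38.p6); the files hold no coordinates. Alternatives were the pseudocount, the filter, scaling, eBayes settings, array weights and leaving out each mouse. Some listed genes are not reported here.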

Additional observations from a re-analysis of the deposited data

How the results depend on the processing

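Across 14 alternatives, 106 of 112 log2 fold changes of the 8 genes kept their sign, and 0 of the 8 genes passed the adjusted threshold in any. The filters and eBayes settings cannot alter a fold change, so under them the sign was kept by construction. The 106 therefore overstates how far the signs were tried. Gbx2 changed sign with array weights (0.035), without control mouse A1 (0.032), without A4 (0.061) and without A6 (0.085). With 1 mouse left out, Lef1 ran from -0.39 (without A6) to 0.084 (without A4), Rgs16 from -0.070 (without A4) to 0.21 (without A6) and Gbx2 from -0.19 to 0.085. The cause of each change of sign was not tested beyond the mouse or weight left out. The median log2 fold change was -0.31 with a pseudocount of 0.1, -0.28 as TPM, -0.24 with median-of-ratios scaling and -0.19 with array weights. With 1 mouse left out it ran from -0.36 without A6 to -0.11 without A4, and it stayed below 0. The following counts with 1 mouse left out were chosen after the data were seen. Genes with a lower log2 mean in depleted mice numbered 6 to 7. Genes with an unadjusted p-value under 0.05, all lower, numbered 1 without A1, A2, A4 or A5 (Ramp3 in each), 2 without A3 and 3 without A6. Of all genes, 429 of 14389 were lower at that level without A1, 570 of 14416 without A2 and 440 of 14400 without A3. The counts were 1030 of 14308 without A4, 1064 of 14413 without A5 and 1019 of 14373 without A6. Genes with all depleted mice below all control mice numbered 2 to 4, the 4 being without A3. The share of all genes lying apart and lower was 9.38% with all mice and 15.7% without A4, where 2 of the 8 lay apart. It was not computed with any other mouse left out. Those counts, the 4 without A3 included, can therefore not be read as above or below the share. The depth of Gbx2 and Lef1 limits what can be said of them, and 3 mice against 3 give no exact p below 0.1. No replicate numbers are shared between the groups, so no paired fit was made.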
